A study of Homo sapiens with 8 samples.

Results

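S100A4, S100A16, S100P and S100A10 are S100 calcium-binding genes, ANXA1 codes for annexin A1, and all are described here across 8 RNA libraries of K562 cells. They were taken by gene name from the deposited expression table and make up 5 of its 1950 genes. The table itself holds only genes that the authors' own comparison picked, so a difference between the groups is built into every gene on it. K562 is an established line from a chronic myeloid leukemia. The extract group was 4 libraries of K562 cells given a plant stem extract, Caulis Polygoni Multiflori (CPM), at 80 µg/mL for 3 days, and the control group was 4 libraries of K562 cells without it. The extract libraries are numbered 1 to 4 and the control libraries 2 to 5, as in their titles. No time in culture is labelled for the controls, so time and extract cannot be told apart, and nothing labels the libraries of a group as separate cultures. The spread between libraries may therefore be technical. All libraries come from 1 cell line, and the series title asks about megakaryocytes, platelets and PI3K/AKT and MEK/ERK signaling.

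S100 proteins are small calcium sensors built from a pair of EF-hand loops. They pair up, open a binding face when calcium rises and attach to partner proteins of the cytoskeleton and the membrane. Annexins bind acidic phospholipids in the presence of calcium and share partners with them, and S100A10 with annexin A2 is the best known such complex. In blood cells these genes are known mostly from monocytes, granulocytes and lymphocytes, and annexin A1 is known as a glucocorticoid-induced mediator that restrains inflammation.

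All 5 genes were lower with the extract, at 47.5% to 57.9% of their control means. The groups did not overlap in any of them (5 of 5). Every extract library lay below every control library in 45.9% of the 750 tested genes. Tested genes are those that passed a filter on low values, meaning 4 or more libraries at 1 or above. These 45.9% are 344 of the 495 tested genes with a log2 difference below 0. Of all listed genes 56.4% had a lower deposited fold change. The genes were chosen by their expression values and deposited fold changes in this same comparison, so the counts describe them and support nothing. The 5 genes also passed the filter, 5 of 5, as did 750 of all 1950 listed genes. No source used here names the unit of the values, and whether they are scaled by transcript length is unknown, so levels are compared between libraries and not between genes.

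The promoters of the 5 genes are shown because the genes were lower together, from 250 bases before to 50 bases after a start, 5′ to 3′ on the gene's strand, from RefSeq on GRCh38.p14, whose starts can differ from the outermost ones in other annotations. All 5 symbols matched the promoter table, S100A16 with 2 start sites. Capitals mark the TATA box core TATAAA and the GC box GGGCGG, each searched on both strands.
S100A4, chr1:153545757-153546056, minus strand: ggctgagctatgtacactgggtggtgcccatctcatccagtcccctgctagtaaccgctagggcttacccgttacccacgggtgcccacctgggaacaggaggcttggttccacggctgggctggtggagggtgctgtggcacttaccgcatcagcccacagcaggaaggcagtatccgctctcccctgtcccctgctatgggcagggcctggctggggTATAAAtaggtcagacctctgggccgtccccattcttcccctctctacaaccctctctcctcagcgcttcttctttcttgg
S100P, chr4:6693628-6693927, plus strand: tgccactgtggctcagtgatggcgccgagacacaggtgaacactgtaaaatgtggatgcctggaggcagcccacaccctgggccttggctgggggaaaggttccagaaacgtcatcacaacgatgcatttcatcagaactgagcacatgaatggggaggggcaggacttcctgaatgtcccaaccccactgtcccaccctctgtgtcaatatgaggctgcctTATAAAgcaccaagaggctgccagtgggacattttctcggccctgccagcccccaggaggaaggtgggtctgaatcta
ANXA1, chr9:73151615-73151914, plus strand: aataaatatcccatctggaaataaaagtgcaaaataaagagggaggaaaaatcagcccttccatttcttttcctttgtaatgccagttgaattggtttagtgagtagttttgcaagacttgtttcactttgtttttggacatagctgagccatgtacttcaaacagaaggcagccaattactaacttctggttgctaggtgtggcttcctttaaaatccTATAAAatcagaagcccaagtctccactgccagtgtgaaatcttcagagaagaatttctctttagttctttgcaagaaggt
S100A10, chr1:151993810-151994109, minus strand: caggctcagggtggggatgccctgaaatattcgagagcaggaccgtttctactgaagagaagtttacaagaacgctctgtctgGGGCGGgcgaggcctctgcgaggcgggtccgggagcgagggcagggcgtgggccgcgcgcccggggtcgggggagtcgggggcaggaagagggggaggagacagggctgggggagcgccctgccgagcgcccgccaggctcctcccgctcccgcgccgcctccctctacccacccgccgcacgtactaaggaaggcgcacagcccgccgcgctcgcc
S100A16, second start, chr1:153609306-153609605, minus strand: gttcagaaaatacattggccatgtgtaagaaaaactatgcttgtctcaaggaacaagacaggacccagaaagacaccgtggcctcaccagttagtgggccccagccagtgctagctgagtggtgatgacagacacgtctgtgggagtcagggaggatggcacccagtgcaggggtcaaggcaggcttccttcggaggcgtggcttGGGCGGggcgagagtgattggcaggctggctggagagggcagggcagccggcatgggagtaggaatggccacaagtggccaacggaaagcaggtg
S100A4, S100P and ANXA1 each held TATAAA on the gene's own strand. Counted from the start, with the first transcribed base as 1, it began at −31 in S100A4, −28 in S100P and −31 in ANXA1. It was present in 3 of 6 windows of these genes and in 11.5% of the 35116 windows in the table. GGGCGG was present in S100A10 and at the second start of S100A16, 2 of 6 windows, and in 45.0% of all windows. CCAAT was in 2 of 6, ANXA1 and the second start of S100A16, and in 34.6% of all windows. The GATA core GATAA had no match (0 of 6) and was in 22.7% of all windows. The AP-1 site TGANTCA had none (0 of 6) and was in 7.71%. The E-box bound by MYC, CACGTG, had none (0 of 6) and was in 7.26%. The glucocorticoid receptor core ACANNNTGT had none (0 of 6) and was in 5.37%. No match overlapped one of another motif. GC made up 71.7% of the S100A10 window and 37.7% of the ANXA1 window, with a median of 58.7% over the table. The other windows lay near that median, at 60.7% for S100A4, 58.3% at both starts of S100A16 and 56.0% for S100P. A match of letters is a description and not a binding site.

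S100A4 binds the heavy chain of nonmuscle myosin and is known for its part in cell motility. Its expression value was 54.89, 53.68, 50.91 and 44.94 in extract libraries 1 to 4, against 95.72, 94.97, 109.19 and 94.72 in control libraries 2 to 5. Extract 4 was lowest and control 4 stood above the other controls, and the highest extract library was still well under the lowest control. The means were 51.1 ± 4.43 with the extract and 98.7 ± 7.04 in controls (SD, n = 4 each), which made S100A4 1.93-fold lower. Without control 4 the control mean was 95.1 ± 0.520 (SD, n = 3) and the difference 1.86-fold.

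S100A16, a widely expressed and little-studied member of the family, had values of 11.51, 11.06, 12.28 and 11.86 with the extract. In controls it had 24.45, 20.20, 21.58 and 20.95. The extract libraries lay close together and the controls were more spread, with control 2 on top. The means of S100A16 were 11.7 ± 0.518 with the extract and 21.8 ± 1.86 in controls (SD, n = 4 each), a level 1.87-fold lower.

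S100P, first described in placenta and known to bind ezrin, was the gene of smallest fold difference among the 5. It had 12.08, 15.08, 12.46 and 11.67 with the extract, against 19.03, 20.65, 24.30 and 24.64 in controls. Extract 2 was the highest of its group, and controls 4 and 5 were above controls 2 and 3. Means of 12.8 ± 1.54 with the extract and 22.2 ± 2.76 in controls (SD, n = 4 each) gave a 1.73-fold lower level.

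S100A10, the partner of annexin A2 at the plasma membrane, has lost calcium binding in its EF hands. It was the most uneven of the 5. Its values were 1.81, 1.61, 0.71 and 0.51 with the extract and 2.78, 1.98, 2.53 and 2.47 in controls. Extract 1 and extract 2 were at 74.2% and 66.0% of the control mean, while extract 3 and extract 4 were at 29.1% and 20.9% of it. The gap between the groups was narrow, with the lowest control only 1.09 times the highest extract library. Means of 1.16 ± 0.645 with the extract and 2.44 ± 0.335 in controls (SD, n = 4 each) made S100A10 2.10-fold lower. On the log2(value + 1) scale its difference was −0.72, and with a pseudocount of 0.1 it was −1.16, because the values are low.

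ANXA1 varied least between libraries. It had 269.34, 266.89, 263.44 and 262.89 with the extract, against 489.40, 485.16, 485.51 and 475.33 in controls. Within each group the 4 libraries differed by little, with a coefficient of variation of 1.14% with the extract and 1.24% in controls. The means were 266 ± 3.04 with the extract and 484 ± 5.996 in controls (SD, n = 4 each), and ANXA1 was 1.82-fold lower.

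**Figure D1:**
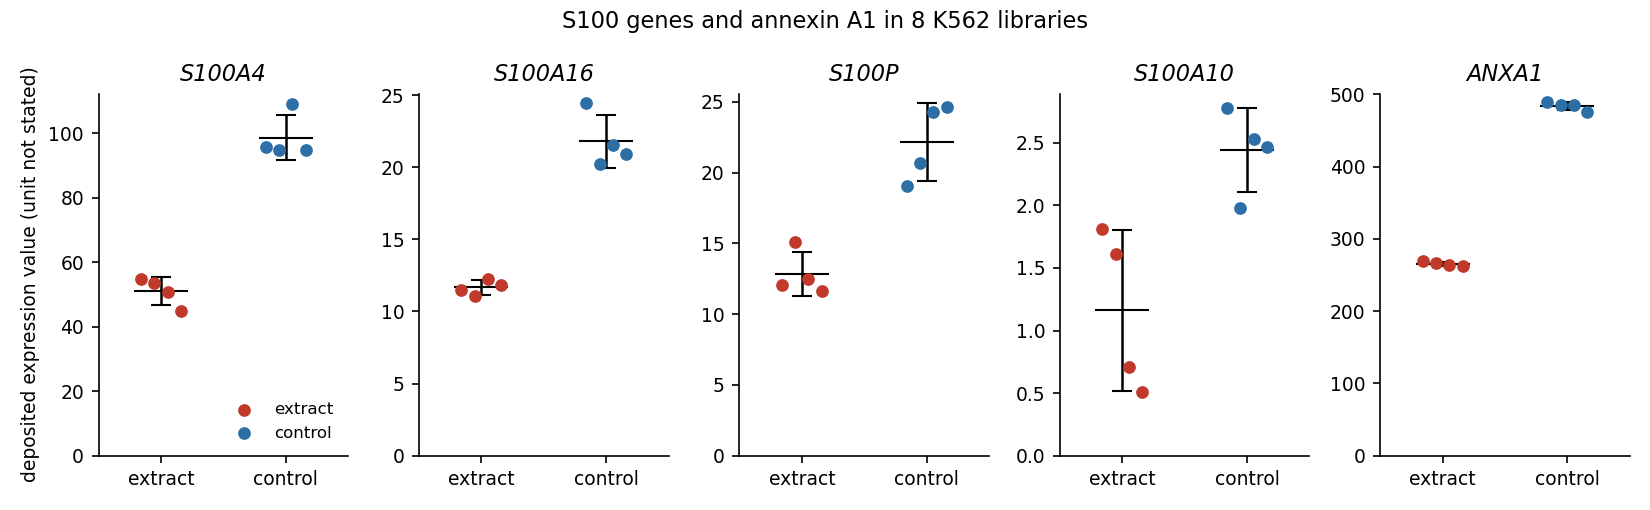
Deposited expression value (vertical axis, unit not stated, starting at 0) of each gene in the 4 extract and 4 control libraries. Points are libraries, and the black line and bar are the mean and SD. The groups do not overlap in any panel, and S100A10 has the widest spread in the extract group, from 0.51 to 1.81.

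Set against its own control mean, each of 4 genes came to a like level in the extract libraries. The extract libraries held 45.6% to 55.6% of the control mean for S100A4, 50.7% to 56.3% for S100A16, 52.7% to 68.1% for S100P and 54.3% to 55.7% for ANXA1. S100A10 ran from 20.9% to 74.2%. No single library was lowest in all of them: extract 4 was the lowest extract library for S100A4, S100P, S100A10 and ANXA1, and extract 2 for S100A16. Among controls the highest library was control 4 for S100A4, control 5 for S100P and control 2 for S100A16, S100A10 and ANXA1.

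**Figure D2:**
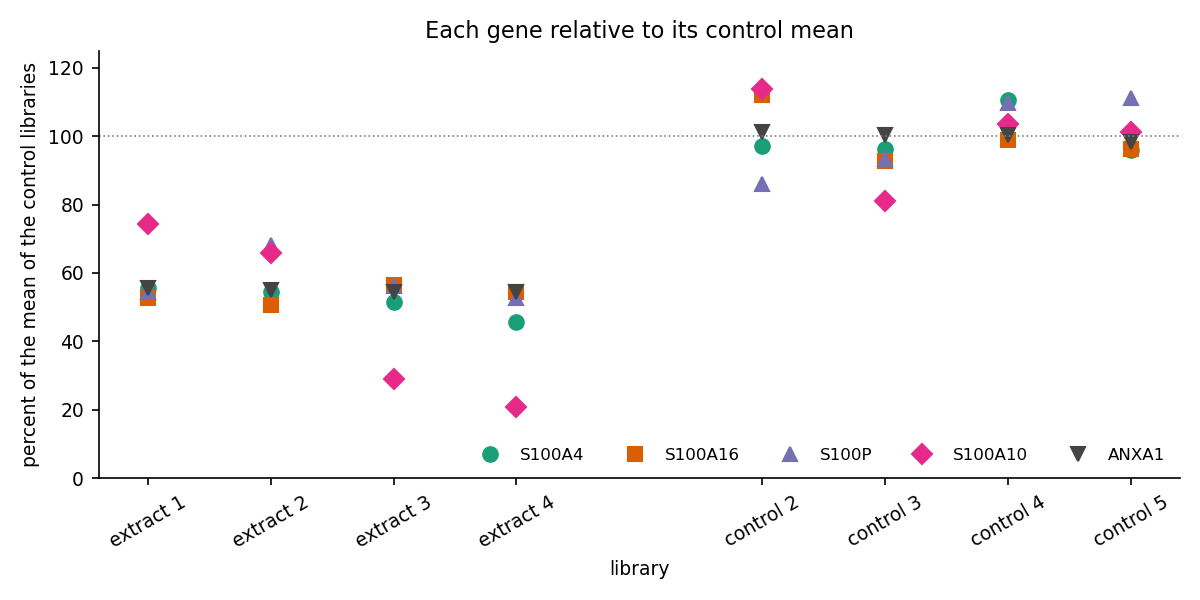
Each gene as a percent of the mean of its 4 control libraries (vertical axis, starting at 0), by library (horizontal axis). One symbol stands for one gene in one library. S100A4, S100A16, S100P and ANXA1 lie between 45.6% and 68.1% in the extract libraries, while S100A10 lies between 20.9% and 74.2%.

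The log2 differences, extract minus control on log2(value + 1), were −0.94 ± 0.0802 for S100A4, −0.86 ± 0.0121 for ANXA1, −0.84 ± 0.0644 for S100A16, −0.74 ± 0.116 for S100P and −0.72 ± 0.233 for S100A10 (SE). Neighbours in this order lay within the sum of their SEs of each other. The median over the 5 genes was −0.84, against −0.50 over all 750 tested genes and −0.63 over the 495 of these with a difference below 0. A lower difference than that of S100A4 was found for 8.40% of tested genes, and for S100A10 the share was 22.5%. Most tested genes were lower: the median level of the tested genes differed by −0.27 (log2) between extract and control libraries. Relative to that shift the differences were −0.67 for S100A4, −0.60 for ANXA1, −0.58 for S100A16, −0.48 for S100P and −0.45 for S100A10. The shift comes from genes that were chosen as changed. With quantile normalization the difference was -0.30 for S100A4, -0.36 for S100P and -0.47 for S100A16, so the sizes depend on scaling. The direction turned neither with median centring nor with quantile normalization. No other alternative run could turn it, since the groups did not overlap.

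**Figure D3:**
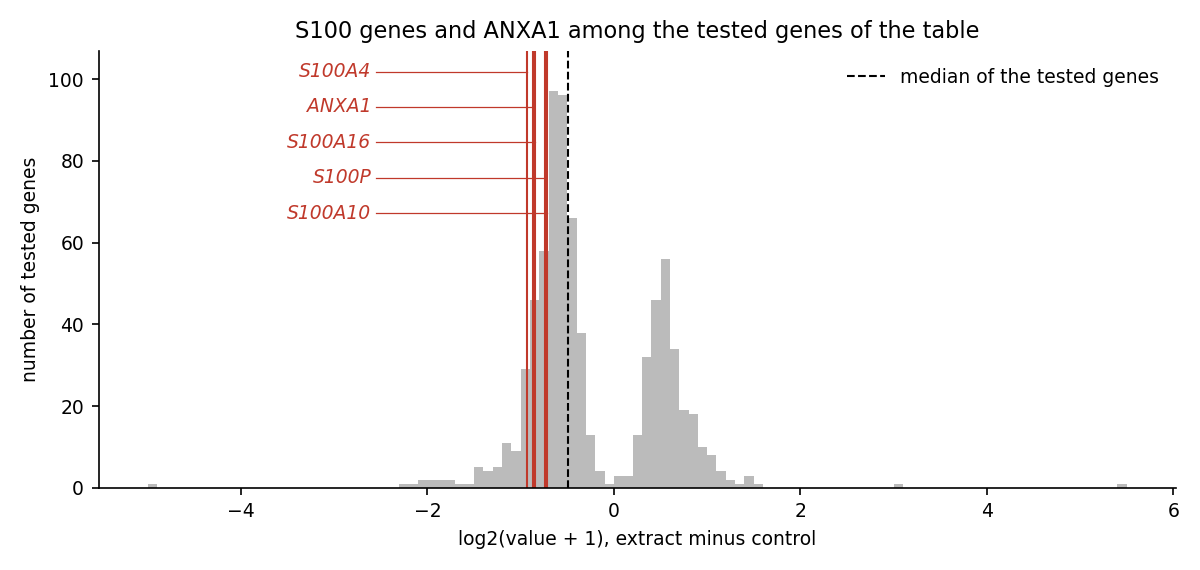
Number of tested genes (vertical axis) by log2 difference, extract minus control (horizontal axis, bins of 0.1), over the 750 tested genes of the table. Red lines mark the 5 genes, between −0.94 and −0.72, and the dashed line marks the median of −0.50. The gap around 0 follows from a table that lists only changed genes.

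The authors' deposited table gives a p-value, its adjusted value and a fold change for each gene. Its lowest absolute log2 fold change is 0.585, which is 1.5-fold, and its highest p is 0.0499, while its adjusted values run above 0.05. In the authors' deposited table the log2 fold change was −0.89 for S100A4, −0.89 for S100A16, −0.76 for S100P, −1.05 for S100A10 and −0.84 for ANXA1. The adjusted p in the authors' deposited table was 7.81e-252 for ANXA1, 4.14e-33 for S100A4, 1.72e-21 for S100A16, 0.000423 for S100P and 0.0886 for S100A10. ANXA1 stood near the head of the table, with 6 genes of lower p in the authors' deposited table. S100A10 stood near the middle, with 1028 of the 1950 genes of lower p in the authors' deposited table. Thus 4 of the 5 had a deposited adjusted p under 0.05. So had 540 of the 1100 listed genes with a lower deposited fold change. These 540 are 27.7% of all 1950 listed genes, lower and higher together. The 5 genes were chosen on this same comparison, so their count only describes them. The deposited log2 fold changes of the 5 genes were 0.01 to 0.06 above the log2 ratios of the group means. Over the 1539 listed genes whose means were both above 0 the median of this gap was 0.03.

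S100A4, S100A16 and S100A10 sit in the S100 gene cluster of chromosome 1, and S100P and ANXA1 lie alone. In GENCODE release 29 on GRCh38, S100A4 (ENSG00000196154) spans chromosome 1, 153543613 to 153550136, and S100A16 (ENSG00000188643) spans 153606886 to 153613145, with 56.8 kb between them. S100A10 (ENSG00000197747) spans 151982915 to 151994390, which is 1549 kb from S100A4, and all these genes are on the minus strand. S100P (ENSG00000163993) is on chromosome 4, 6693069 to 6697170, and ANXA1 (ENSG00000135046) on chromosome 9, 73151757 to 73170393, both on the plus strand. The cluster holds 17 genes of the S100 list over 1649 kb, and 4 of these were in the table, all of them lower. Over the same span 6 of 92 annotated genes were listed. Among the 4 lower genes, S100A4, S100A16 and S100A10 were chosen on this contrast, and S100A3 was at most 0.26 in any library. Of all listed genes 56.4% had a lower deposited fold change, so the shared direction of the 4 only describes them.

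The table also lists S100A3, a gene known from hair follicles, whose annotation lies inside that of S100A4 on the same strand. No exonic bases (0) are shared between them in this annotation. S100A3 was listed at 0 in each extract library and at 0.25, 0.26, 0.16 and 0 in controls, so it was near 0 in both groups. The nearest listed gene on the other side of S100A16 was AL162258.1, a noncoding transcript 13.2 kb away, with means of 2.87 ± 0.597 with the extract and 1.73 ± 0.489 in controls (SD, n = 4 each). The next listed gene below S100A4 was PGLYRP4, a peptidoglycan recognition gene 195 kb away, at 0.138 ± 0.0435 with the extract and 0.0075 ± 0.015 in controls (SD, n = 4 each). That gene and AL589765.7 were also the nearest listed genes around S100A10, at 1336 kb and 223 kb. The neighbours of S100P, POLN and AC097382.2, had means below 0.5 in both groups. ANXA1 had no listed gene within 2737 kb, where KLF9 lay, and AL137847.2 on its other side was at 0.18 ± 0.125 with the extract and 0.498 ± 0.151 in controls (SD, n = 4 each).

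**Figure D4:**
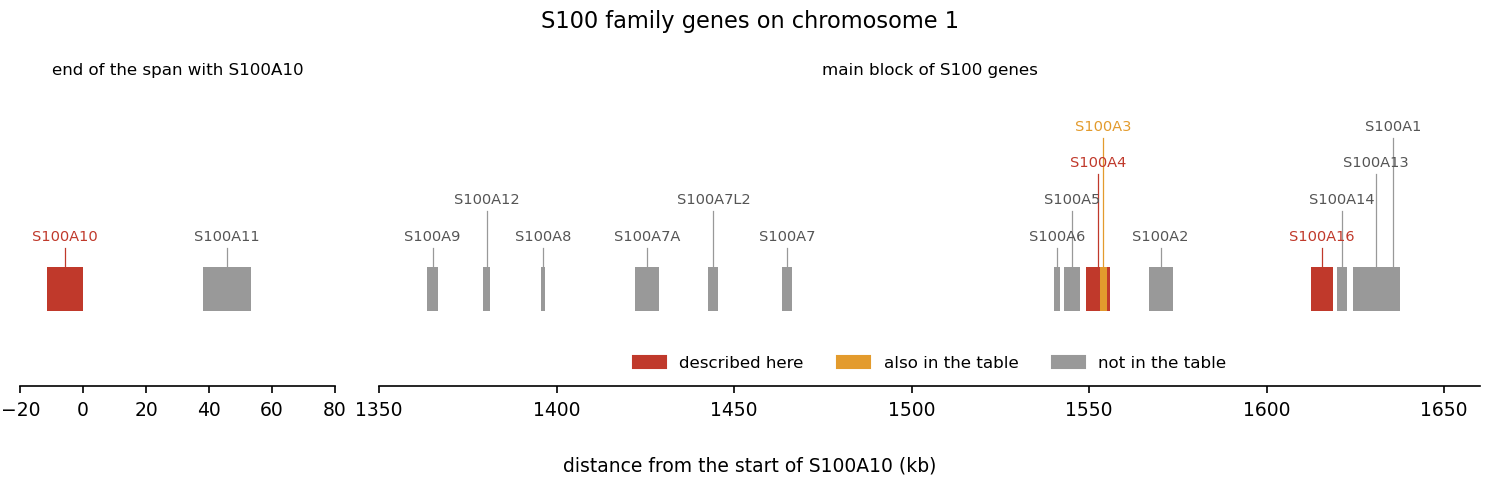
S100 family genes on chromosome 1 by distance from the start of S100A10 in kb (horizontal axis, in 2 stretches drawn at different scales), with each bar as long as the annotated gene. S100A10, S100A4 and S100A16 (red) and S100A3 (orange) are the 4 of 17 genes in the table. The other S100 genes (grey) were not analysed here.

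The families of these genes were mostly not in the table. Of 21 S100 genes 5 were listed, 5 lower and 0 higher in the authors' deposited table, where 56.4% of all listed genes were lower. Only 1 of them, S100A3, is not among the genes described here, which were chosen on this contrast. None (0) of 7 fused-type S100 genes of the epidermis was listed. Among 13 annexins, ANXA1 and ANXA3 were listed. ANXA3, a calcium-dependent phospholipid binder, had 1.58, 1.51, 1.40 and 1.14 with the extract and 2.43, 1.22, 2.13 and 1.67 in controls, and its groups overlapped. Its limma adjusted p was 0.163 over all tested genes, with a range from 0.0364 to 0.841 over the alternatives, and its difference turned to 0.03 with median centring. In the authors' deposited table ANXA3 had a log2 fold change of −0.65, while the ratio of its means was −0.40 on the log2 scale. ANXA2, S100A6, S100A8, S100A9 and S100A11 were not listed and were not analysed here.

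Few of the partners and receptors of these proteins were listed, 3 of 27, and all concern plasminogen, the protease precursor that the S100A10 and annexin A2 complex is known to hold at the cell surface. PLAU, the urokinase gene, had 1.05, 0.74, 16.89 and 0.87 with the extract and 2.05, 1.75, 1.80 and 1.74 in controls. Extract 3 was far above every other library, and the other 3 extract libraries were below every control. The mean with the extract was 4.89 ± 8.003 with all 4 libraries and 0.887 ± 0.156 without extract 3 (SD, n = 3), against 1.83 ± 0.146 in controls (SD, n = 4). The log2 ratio of means was 1.41 with all libraries and −1.05 without extract 3. In the authors' deposited table PLAU had a log2 fold change of −0.89, opposite in sign to the ratio of all means, as for 12 of the 1539 genes. PLAT, the tissue plasminogen activator gene, lay between 0 and 0.09 with the extract and between 0.11 and 0.52 in controls. PLG, the plasminogen gene, was listed at 0 in all controls and in extract 2, with at most 0.56 in the other extract libraries.

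Of 32 other EF-hand genes 3 were listed. RCN3, a calcium-binding protein of the secretory pathway, fell to 4.28 ± 0.111 with the extract, against 7.57 ± 0.770 in controls (SD, n = 4 each), with a limma adjusted p of 0.000238. In limma 56.0% of the tested genes were called lower and 26.8% higher, so a call is the usual state in this table. The split depended on scaling: with median centring 241 of the 750 were called lower and 228 higher, and with quantile normalization 251 lower and 222 higher. CALML4, a calmodulin-like gene, had means of 8.51 ± 1.01 with the extract and 7.20 ± 1.28 in controls, with a limma adjusted p of 0.129 and overlapping groups. It was called higher with median centring, with quantile normalization and without control 2 (limma adjusted p of 0.00969, 0.00723 and 0.0369). CALB2, the calretinin gene, was at 1.00 ± 0.112 with the extract and 0.398 ± 0.158 in controls, below the filter. These genes did not move one way: in the authors' deposited table, RCN3 was lower while CALML4 and CALB2 were higher. For CALML4 the log2 fold change in the authors' deposited table was 0.80, while the ratio of its means was 0.24 on the log2 scale.

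**Figure D5:**
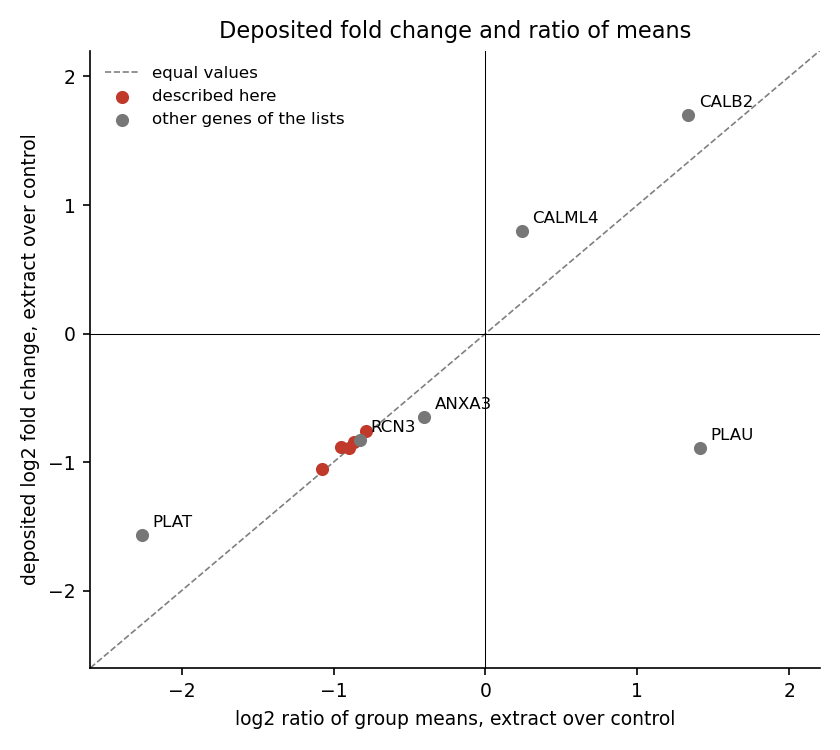
Log2 ratio of the group means (horizontal axis) against the log2 fold change in the authors' deposited table (vertical axis), both extract over control, for the listed S100, annexin, partner and EF-hand genes with both means above 0. The dashed line marks equal values. The 5 genes described here (red) lie close to it, and PLAU lies off it at 1.41 and −0.89. Less far off it are PLAT (−2.26 and −1.57), CALML4 (0.24 and 0.80), CALB2 (1.33 and 1.70) and ANXA3 (−0.40 and −0.65).

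ANXA1 is known as a target of glucocorticoids, and a few genes of that response were listed. Of 10 such genes 4 were listed, 3 lower and 1 higher in the authors' deposited table. Of these 3 were tested, 2 called lower and 1 higher in limma, where 56.0% of all tested genes were called lower and 26.8% higher. SGK1, a kinase gene, rose to 7.98 ± 0.686 with the extract, against 3.87 ± 0.567 in controls. KLF9, a transcription factor gene, fell to 5.47 ± 0.406, against 10.1 ± 0.588 in controls (SD, n = 4 each). CEBPD, another transcription factor gene, fell to 2.90 ± 0.615, against 4.51 ± 0.752 in controls. The call of CEBPD was lost with median centring and with quantile normalization (limma adjusted p of 0.200 and 0.203). ZBTB16, below the filter, was at 0.355 ± 0.144 with the extract and 0.9125 ± 0.224 in controls (SD, n = 4 each). Any part of a glucocorticoid response in the ANXA1 difference was not tested. Of 10 mesenchymal genes, for which S100A4 is also used as a marker, FN1, the fibronectin gene, alone was listed, at 9.46 ± 0.395 with the extract and 4.36 ± 1.06 in controls (SD, n = 4 each).

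Few markers of other cell types were listed. Of 20 monocyte, macrophage and granulocyte markers 2 were listed, CD68 and SPI1, and both fell (limma adjusted p of 4.29e-05 and 0.00108), where 56.0% of tested genes were called lower. Their summed value was 18.9 to 22.7 with the extract and 31.9 to 33.3 in controls. Of 12 fibroblast and epithelial markers 1 was listed, COL1A1, at 0.24 to 0.36 with the extract and 0.47 to 0.67 in controls. None of these listed markers was at 0, and the others were not analysed here. Their part in the S100 and ANXA1 differences was not tested. In such bulk samples fewer cells of a type and less RNA per cell cannot be told apart. Of the lineage markers known from K562, 2 of 12 megakaryocyte and platelet genes were listed, ITGA2B and GP1BB. Both were called lower in limma (adjusted p of 0.00972 and 0.0268). ITGA2B was at 2.02 ± 0.438 with the extract and 3.48 ± 0.718 in controls (SD, n = 4 each). GP1BB was at 49.8 ± 5.63 and 81.2 ± 27.3, and its groups overlapped, with extract libraries up to 57.11 and controls down to 52.05. Whether these 2 calls hold under other scalings was not examined. Of 15 erythroid genes 2 were listed. HBZ, an embryonic globin that K562 cells are known to make, was called higher, and SLC4A1 was too low to test.

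Other genes correlated closely with the 5 genes over the 8 libraries. Among 566 tested genes with a symbol, the highest Pearson correlations of log2(value + 1) were with MIR223HG, PHLDA2 and MLLT11 for S100A4 (0.994, 0.989 and 0.987). For ANXA1 they were with MYEOV, MLLT10P2 and TMSB4X (0.999, 0.998 and 0.997). A correlation takes no account of the size of a difference: MLLT10P2 was at 0 in every extract library and at 3.77 ± 0.427 in controls (SD, n = 4). MYEOV had means of 25.7 ± 0.336 with the extract and 51.3 ± 1.64 in controls, and TMSB4X, which codes for an actin-sequestering peptide, 593 ± 6.12 and 1122 ± 33.2 (SD, n = 4 each). S100A16 was closest to LINC01088, STARD8 and CCDC61 (0.995, 0.990 and 0.989), and S100P to FAM124B, SOD1P3 and ANTXR2 (0.978, 0.976 and 0.975). S100A10 was closest to CCDC85B, MRPL41 and ANTKMT (0.969, 0.959 and 0.954). Between the 5 genes themselves the correlations ran from 0.757 for S100A16 with S100A10 to 0.983 for S100A16 with ANXA1. These correlations include the difference between the groups, on which the table was chosen. For ANXA1 that difference was −0.86 against a within-group SD of 0.0172 on log2(value + 1), so its correlations mostly reflect it. The within-group SD was 0.113 for S100A4 at a difference of −0.94, and 0.0911 for S100A16 at −0.84. It was 0.164 for S100P at −0.74 and 0.330 for S100A10 at −0.72. The group difference was thus large against the spread for S100A4, S100A16 and S100P, and less so for S100A10. Its share of each correlation was not computed.

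Over the tested genes, libraries of the same group correlated at 0.938 to 0.962 (Pearson) and libraries of different groups at 0.819 to 0.875. The table lists only changed genes, so lower correlations between the groups are built in and say nothing of unlisted genes. The listed values summed to between 13114 and 13433 in extract libraries and between 13629 and 14134 in controls. That sum covers a partial list and is no measure of depth, which is unknown, so no interval for counting error is given.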

How the data were processed

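RNA was sequenced from 8 K562 libraries made with a TruSeq kit after TRIzol extraction, per the labels' protocols. HISAT2, StringTie and the build GRCh38 stand in the submitters' processing notes without versions or roles. The deposited table gives 1 expression value per gene and library, of a unit that no source used here states. The authors' table also holds their fold change (a ratio of extract to control), log2 fold change, p-value and adjusted value, made with a tool that no source used here names. Strand and depth are unknown.

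Groups follow the treatment label, since the treatment protocol text is the same for all 8 samples. Group means, SDs and log2(value + 1) differences were computed with Python 3.11.15 and pandas 2.3.3. limma 3.58.1 in R 4.3.3 (trended, robust empirical Bayes, Benjamini-Hochberg over all 750 tested genes, called at 0.05) gave the background and the calls of other genes, and was tested on simulated data. For the 5 genes no test is given, since they were chosen on this contrast. All genes, lists and motifs were chosen with earlier results of these data known. Named genes were the 5 genes, listed genes of the S100, annexin, partner and EF-hand lists, up to 4 of each further list, the nearest listed neighbours and the 3 most correlated genes for each. Of the 1950 listed genes 1866 had their ID in GENCODE release 29. Alternatives were other pseudocounts, filters, scalings and moderation, a block on the library number, and leaving out each library. The result of 1 marker list is not reported here.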

Additional observations from a re-analysis of the deposited data

Results flagged for a closer look

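Of 24 groups of 4 libraries, from 13 genes of the S100, annexin, partner and EF-hand lists, 2 had 1 library well away from its group, while about 1.2 such groups arise by chance. S100A4 was highest in control 4, at 109.19, while the other controls lay between 94.72 and 95.72. PLAU was highest in extract 3, at 16.89, while the other extract libraries lay between 0.74 and 1.05. The cause of either was not tested.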

How the results depend on the processing

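All 5 genes stayed lower with the extract under every alternative run. Since their groups did not overlap, only the scalings could have turned a sign. The other alternatives could not, from pseudocounts and filters to leaving out 1 library. With median centring the log2 difference was -0.67 for S100A4, -0.60 for ANXA1, -0.58 for S100A16 and -0.48 for S100P, and with quantile normalization -0.30, -0.67, -0.47 and -0.36. S100A10 was -1.16 with a pseudocount of 0.1. Leaving out 1 library gave -0.97 to -0.88 for S100A4, -0.88 to -0.79 for S100A16, -0.82 to -0.69 for S100P, -0.86 to -0.56 for S100A10 and -0.87 to -0.86 for ANXA1. Called genes numbered 621, 420 lower and 201 higher. With median centring 241 were lower and 228 higher, and with quantile normalization 251 lower and 222 higher, a nearly even split. With no filter 567 of 1950 were lower and 314 higher. Leaving out 1 library gave 538 to 584 calls, 369 to 394 lower and 163 to 190 higher. With the library number as a replicate block 511 genes were called, 351 lower and 160 higher, and S100A4 was at -0.99. Same-numbered libraries correlated at 0.0754, 0.0754 and 0.149 in their deviations from group means. Differently numbered libraries were not compared in this way, so these values cannot decide whether the numbers pair them. The main fit used no pairing. The sign turned for ANXA3 with median centring (0.033) and for PLAU without extract 3 (-1.05, against -1.05 to 1.77 over the 8 libraries left out in turn, chosen after seeing the data). The causes were not tested.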
